A study of Mus musculus with 18 samples.

Results

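The loci described here lie on both sides of Ppara, the gene of the nuclear receptor that Wy14,643 and fenofibrate activate, on mouse chromosome 15. They are the annotated loci whose midpoint fell within 10 Mb of position 85771208 (mm10), with Ppara itself left out, and they number 413 of the 31099 loci with a gene identifier in the files. The choice used position alone and no measured value. Liver RNA was sequenced from mice of 8 weeks, either wild type (Ppara+/+) or null for the receptor (Ppara-/-), which received for 48 h either a control diet or one with 0.1% Wy14,643 or 0.5% fenofibrate. There were 6 groups with 3 libraries apiece, every one of them made from a mixture of 3 to 5 livers. Both genotypes carry the same label for strain, a mix of C57BL/6 and SV129, so no group is on a pure background. The sources used here do not give how the null allele was bred or which strain supplied the chromosome around it.

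PPARα pairs with the retinoid X receptor on DNA and, when bound by fatty acids or fibrate drugs, switches on genes of fatty acid uptake and oxidation in hepatocytes, while many inflammatory genes fall. A gene that sits close to a targeted allele is inherited together with it. On a mixed background, mice selected for a null allele therefore tend to carry a block of chromosome from the strain in which the allele was made, and sequence differences in that block can alter its genes whatever the diet. Loss of the receptor and such a block both go with the genotype, so for each locus they cannot be told apart from null against wild type levels, and which of them applies was not tested.

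Of the 413 loci, 317 were protein coding, 32 were long noncoding RNAs, 9 were pseudogenes and 55 had no biotype in the gene table used. Lower coordinates than Ppara held 309 of them and higher coordinates 104. No read was counted at 93 loci, of which 42 lay wholly inside another locus, and 71 more had too few counts for the test. The remaining 249 were tested, 192 on the lower and 57 on the higher side, and 90 of them overlapped another locus, where reads of neighbours may have been shared or split. Libraries held 68.9 to 151 M counts, of which 48.8% to 76.6% fell on the major urinary protein (Mup) genes, and the loci around Ppara held 0.355 to 0.552 M counts. Hepatocyte markers summed to 45253 to 47066 CPM (counts per M library counts) in the wild type control libraries and none of the 6 was at 0. One sex-linked transcript went against the rest, since the third wild type library on Wy14,643 held 308 counts of Xist and no other library held more than 1, and without that library the same 21 loci were called on all 3 diets. Ppara itself, the check on the genotype labels, held 5214 to 9045 counts in wild type and 1134 to 2328 in null libraries.

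Promoter sequences show what the loci offer the receptor within 250 bases before and 50 bases after their RefSeq start (GRCm38.p6), and the table held one for 140 of the 249 tested loci. PPARα with its partner binds direct repeats of AGGTCA separated by a single base. Both strands were searched for AGGTCANAGGTCA, for its relaxed form AGGNCANAGGNCA, for the still looser core GGNCANAGGNCA and for the half-site AGGTCA, each of which can overlap the others. Gtse1 is shown because its mean difference was the largest within 1 Mb of Ppara, Pmm1 because it fell furthest among loci called on all diets, Apol9a because it rose furthest, and Cyp2d10 and Cyp2d40 because they hold tandem repeats. Capitals mark AGGTCA half-sites on either strand and the core GGNCANAGGNCA.
Gtse1 (chr15:85859457-85859756, + strand): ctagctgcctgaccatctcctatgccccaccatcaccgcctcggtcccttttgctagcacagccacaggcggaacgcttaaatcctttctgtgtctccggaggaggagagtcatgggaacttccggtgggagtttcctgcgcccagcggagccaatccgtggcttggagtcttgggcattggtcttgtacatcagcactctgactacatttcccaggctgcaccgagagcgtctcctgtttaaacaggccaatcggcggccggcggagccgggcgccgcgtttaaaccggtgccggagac
Pmm1 (chr15:81960881-81961180, - strand): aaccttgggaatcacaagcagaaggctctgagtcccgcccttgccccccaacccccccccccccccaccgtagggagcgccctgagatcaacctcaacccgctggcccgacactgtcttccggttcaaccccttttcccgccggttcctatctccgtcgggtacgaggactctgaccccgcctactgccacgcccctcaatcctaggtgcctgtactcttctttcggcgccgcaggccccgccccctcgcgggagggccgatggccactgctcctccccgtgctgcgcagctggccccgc
Apol9a (chr15:77411031-77411330, - strand): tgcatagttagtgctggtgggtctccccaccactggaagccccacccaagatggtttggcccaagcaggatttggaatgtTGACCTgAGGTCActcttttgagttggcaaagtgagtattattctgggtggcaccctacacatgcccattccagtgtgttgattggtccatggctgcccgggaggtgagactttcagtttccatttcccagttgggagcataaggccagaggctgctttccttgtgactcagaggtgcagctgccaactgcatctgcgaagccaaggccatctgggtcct
Cyp2d10 (chr15:82407145-82407444, - strand): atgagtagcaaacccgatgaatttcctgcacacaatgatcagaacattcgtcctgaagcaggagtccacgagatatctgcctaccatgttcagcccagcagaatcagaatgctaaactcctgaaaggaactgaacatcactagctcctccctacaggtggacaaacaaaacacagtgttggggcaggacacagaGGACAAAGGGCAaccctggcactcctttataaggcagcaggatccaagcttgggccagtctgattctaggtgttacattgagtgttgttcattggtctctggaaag
Cyp2d40 (chr15:82764073-82764372, - strand): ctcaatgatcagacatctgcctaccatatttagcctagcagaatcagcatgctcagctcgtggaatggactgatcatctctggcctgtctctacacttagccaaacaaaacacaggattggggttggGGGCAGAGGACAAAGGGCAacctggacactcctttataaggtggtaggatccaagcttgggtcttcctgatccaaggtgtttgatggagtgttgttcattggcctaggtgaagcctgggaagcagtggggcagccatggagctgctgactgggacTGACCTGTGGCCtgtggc

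The Gtse1 and Pmm1 windows hold none of these letters. Apol9a holds a pair of half-sites on opposite strands, set back to back across a single base, and so does its relative Apol9b. Among the 140 promoters, 6 held the relaxed repeat (4.29%), against 0.381% of all 32851 promoters in the table. These 6 were Apol7b, Apol7c, Apol7e, Cyp2d9, Cyp2d10 and Cyp2d40, members of 2 families of near copies, so the matches are not independent. The strict repeat was found in 1 of the 140, Apol7c, and in 0.0396% of all promoters. The half-site stood in 14.3% of the 140 and in 16.3% of all. Of the 21 loci that differed on all 3 diets, 12 had a promoter in the table, 0 of these held a repeat, and 3 held a half-site (Apol9a, Apol9b and Arsa). A match is a run of letters, not a binding site, and its absence says nothing on binding elsewhere.

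On the control diet, 27 of the 249 tested loci (10.8%) differed between null and wild type livers at an adjusted p under 0.05 (edgeR quasi-likelihood test, adjusted over all loci tested), against 9.94% of the 14241 loci tested in the genome. Of the 27, 7 were higher and 20 lower in null livers (4.28% and 5.66% of all tested loci). On Wy14,643 the count was 136, or 54.6% against 52% in the genome, with 56 higher and 80 lower (27.1% and 25% of all tested loci). On fenofibrate it was 126, or 50.6% against 47%, with 53 higher and 73 lower (24.1% and 22.9% of all). The mean of the 3 diets called 152 loci (61% against 57.7%), with 65 higher and 87 lower (30.2% and 27.5% of all). Each of these shares is near its background, so as a whole the neighbourhood of Ppara differed between genotypes about as often as other places did. The split into higher and lower depended on scaling, and the cause was not tested. With library totals in place of trimmed means, the median of all tested loci moved to 0.32 on the control diet, -0.78 on Wy14,643 and -0.41 on fenofibrate (log2). The loci called higher against lower then became 46 against 4, 14 against 171 and 18 against 130.

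A total of 21 loci differed in the same direction on all 3 diets (8.43%, against 7.35% of all tested loci). Null livers were higher at 7 of them (3.18% of all tested loci were), namely Gsdmd, Apol9a, Apol9b, Il2rb, Arfgap3, Gtse1 and Celsr1. They were lower at 14 (4.17% of all), namely Mapk15, Smpd5, Oplah, Slc52a2, Adck5, Triobp, Sun2, L3mbtl2, Pmm1, 5031439G07Rik, Zbed4, Cpt1b, Arsa and the noncoding C230037L18Rik. The 3 comparisons share no library, and at each of the 21 the 3 null and 3 wild type libraries did not overlap on any diet. The same absence of overlap on all diets held for 46 of the 249 loci (18.5%) and for 15.2% of all tested loci. Of the 21, 15 lay on the lower side, as far as Gsdmd at 9.91 Mb, and 6 on the higher side, from Gtse1 at 96.9 kb to C230037L18Rik at 3.71 Mb. None changed direction under library totals, although only 9 of the 21 were still called on all 3 diets there. Control diet calls ended under library totals at 10 of the 21, namely Slc52a2, Adck5, Triobp, Sun2, L3mbtl2, Pmm1, Zbed4, Cpt1b, Arsa and C230037L18Rik. Celsr1 lost its calls on both drugs there, and Il2rb its call on fenofibrate.

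**Figure D1:**
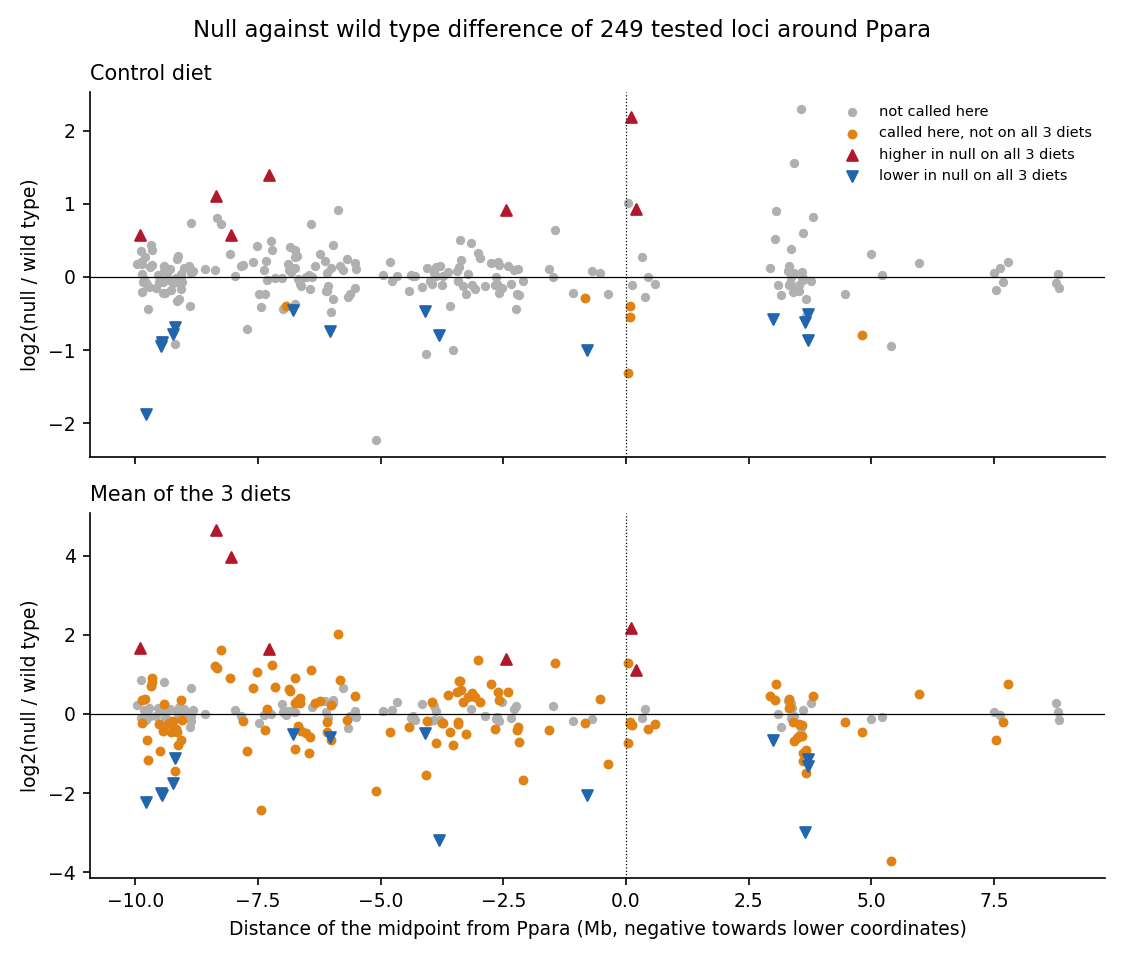
Each point is one of the 249 tested loci, with its distance from Ppara in Mb on the x axis and log2 of null over wild type on the y axis, for the control diet (upper panel) and for the mean of the 3 diets (lower panel). Triangles mark the 7 loci higher and the 14 lower in null livers on all 3 diets. Orange points are called in that panel but not on all 3 diets. The triangles reach 9.91 Mb on the lower side and 3.71 Mb on the higher side.

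The share of loci called on the control diet was counted by distance from Ppara, as a description with no test. Within 1 Mb, 7 of 16 tested loci (43.8%) were called on the control diet, or 6 of 15 (40%) with the overlapping Ttc38 pair counted once. The share was 9.94% over all tested loci. Within 2.5 Mb 8 of 29 were called (27.6%). From 2.5 to 5 Mb the count was 7 of 83 (8.43%), from 5 to 7.5 Mb 4 of 58 (6.9%) and from 7.5 to 10 Mb 8 of 79 (10.1%). The rest of chromosome 15 had 22 of 310 (7.1%), and the other 19 chromosomes had 6.05% to 15.6%. For loci called on all 3 diets the shares were 3 of 16 within 1 Mb (18.8%) and 4 of 29 within 2.5 Mb (13.8%), against 6.13% on the rest of chromosome 15 and 3.95% to 10.8% on other chromosomes. These counts rest on few loci and on single libraries, for without wild type control library 3, or without null control library 2, the control diet count within 1 Mb fell from 7 to 3. Under library totals it was also 3 of 16, while 19.2% of all tested loci were called.

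**Figure D2:**
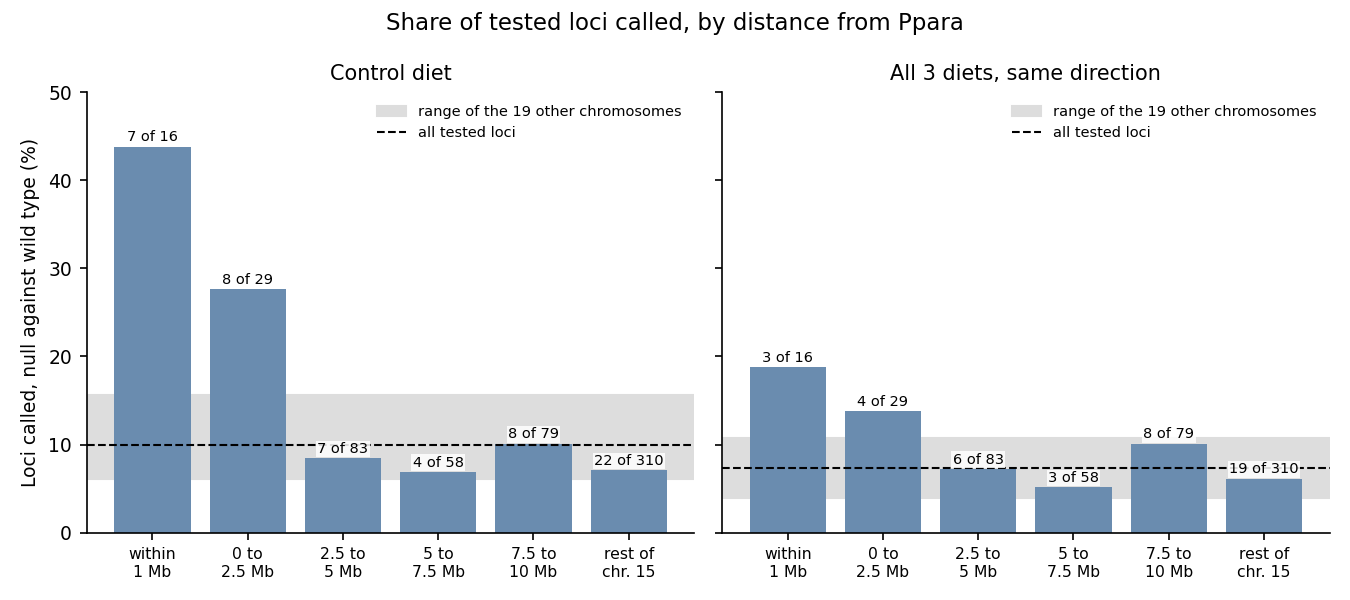
Bars give the percentage of tested loci called between null and wild type livers on the control diet (left) and on all 3 diets (right), by distance from Ppara and for the rest of chromosome 15, with the counts above them; the bar for 0 to 2.5 Mb includes the loci within 1 Mb. The dashed line is the share of all tested loci and the grey band spans the 19 other chromosomes; on the control diet the bars of 43.8% and 27.6% stand above the band and the others lie in it.

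Gtse1, which encodes a microtubule-binding protein made in the S and G2 phases of the cell cycle, has its midpoint 96.9 kb beyond that of Ppara (chr15:85859707-85876573, plus strand). In CPM the wild type libraries read 0.121, 0.133 and 0.0811 on the control diet, 0.219, 0.173 and 0.0698 on Wy14,643 and 0.254, 0.178 and 0.209 on fenofibrate. The null libraries read 0.495, 0.545 and 0.515, then 1.003, 0.7202 and 0.849, then 0.747, 0.772 and 0.789. All 9 null libraries were above all 9 wild type libraries. The log2 difference was 2.19 ± 0.30 (SE) on the control diet (adjusted p = 6.6e-05, edgeR), 2.46 ± 0.27 on Wy14,643 and 1.83 ± 0.26 on fenofibrate. The test for a difference between diets did not call it (adjusted p = 0.43). Counts were low, 7 to 113 per library. Fenofibrate raised it in wild type by 0.93 ± 0.33 (adjusted p = 0.035), and no response was called in null livers. Of 12 other cell cycle genes, a list added after these values were seen, 0 were called on the control diet (9.94% of all tested loci were). On Wy14,643 3 of the 12 were lower in null livers (25% of all tested loci were), and on fenofibrate 6 were higher (24.1% of all). Their summed level in the control diet libraries was 2.61 to 4.54 CPM in wild type and 2.52 to 3.19 CPM in null livers, and their part in the Gtse1 difference was not tested.

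Celsr1, a cadherin of the planar cell polarity pathway, is the next locus of the 21, at 195 kb (chr15:85898758-86034217, minus strand). Wild type libraries held 0.7800, 0.996 and 0.753 CPM on the control diet, 1.02, 1.11 and 1.099 on Wy14,643 and 0.339, 0.598 and 0.636 on fenofibrate. Null libraries held 1.46, 1.34 and 2.04, then 2.86, 2.71 and 1.95, then 1.74, 0.833 and 1.05. The genotypes were apart within each diet, but null fenofibrate libraries 2 and 3 lay among the wild type libraries of the other diets. The log2 differences were 0.93 ± 0.26, 1.22 ± 0.25 and 1.20 ± 0.27, with adjusted p = 0.028, 0.00052 and 0.0015, and were not called as varying (adjusted p = 0.77). Under library totals they were 1.27, 0.41 and 0.71, and neither drug difference was called. The call on the control diet was lost without any one of wild type control libraries 1 and 3 or null control library 3.

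On the lower side of Ppara, 5031439G07Rik, a protein-coding gene with no settled function, lies at 805 kb (chr15:84943936-84988551, minus strand). It read 11.3, 14.1 and 12.2 CPM in wild type and 6.56, 6.17 and 6.07 in null livers on the control diet. Wild type levels were 35.6, 36.2 and 35.001 on Wy14,643 and 37.1, 38.2 and 41.1 on fenofibrate, and null levels 5.51, 6.19 and 4.89 and 6.801, 7.21 and 7.43. Wild type levels were higher on both drugs, and null livers stayed at or below 7.43 CPM on every diet. The log2 difference was -1.00 ± 0.09 on the control diet and -2.68 ± 0.10 and -2.44 ± 0.10 on the drugs, and it varied with diet (adjusted p = 3.9e-08).

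The other loci next to Ppara differed on fewer diets. Of the 5 nearest tested loci on each side, 6 were called on the control diet, 2 on all 3 diets and 9 in the mean, against 9.94%, 7.35% and 57.7% of all tested loci, and 2 of the 6 are the Ttc38 pair. Cdpf1, a little studied gene that runs towards Ppara from the next position (38.1 kb, chr15:85806972-85811697, minus strand), held 0.269, 0.3696 and 0.348 CPM in wild type and 0.165, 0.0719 and 0.154 in null control livers, a log2 difference of -1.31 ± 0.30 (adjusted p = 0.0079). Its differences on Wy14,643 and fenofibrate were -0.55 ± 0.35 and -0.34 ± 0.32 (adjusted p = 0.2 and 0.41), at 6 to 36 counts per library. A change of the difference itself with diet was not called (adjusted p = 0.21). Under library totals the Cdpf1 difference was -1.00 on the control diet with no call, and -1.36 on Wy14,643 with a call. Ttc38, a tetratricopeptide repeat protein, was listed as a pair of overlapping loci on opposite strands, at 74.4 kb and 86.3 kb. The pair moved alike, with control diet differences of -0.55 ± 0.13 and -0.40 ± 0.12, and as the strand rule of the counting is not given, the pair cannot be taken as separate genes. Under library totals these became -0.22 and -0.08, and neither was called. Nup50, a nuclear pore component at 838 kb, was lower by -0.29 ± 0.08 on the control diet and -0.32 ± 0.08 on Wy14,643 in signed log2 terms, but its control diet difference took the opposite sign under library totals.

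Pkdrej, a polycystin relative known from sperm, was called on Wy14,643 (1.86 ± 0.51, adjusted p = 0.005) and read 1.01 and 0.99 on the other diets with no call. It held 6 to 105 counts per library, and under library totals the Wy14,643 difference was 1.07 and was not called. Atxn10, ataxin 10, at 371 kb, was not called on the control diet (-0.23 ± 0.10, adjusted p = 0.2, positive under library totals). In wild type it read 20.3, 21.6 and 20.8 CPM on the control diet, 58.1, 57.6 and 60.7 on Wy14,643 and 56.7, 46.4 and 54.1 on fenofibrate. Null libraries stayed between 14.1 and 18.5 CPM on all diets. Fam118a was called on no diet (0.08, -0.34 and -0.16), but under library totals it was called lower on both drugs (-1.18 and -0.59). Fbln1, an extracellular matrix fibulin, was narrowly called on Wy14,643 (0.63 ± 0.26, adjusted p = 0.0498), with the sign reversed under library totals (-0.20). It was also called in the mean of the diets (0.37 ± 0.15, adjusted p = 0.04), a call lost in several alternatives. The loci called on the control diet but not on all 3 numbered 6, all lower in null livers under trimmed-mean scaling. Beside Nup50, Cdpf1 and the Ttc38 pair they were Cdc42ep1 (-0.40 ± 0.12) and Cpne8 (-0.80 ± 0.21), named here because of their values.

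Of the 21 loci, 9 had a difference that was not called as varying with diet, namely Mapk15, Il2rb, Triobp, Sun2, L3mbtl2, Gtse1, Celsr1, Zbed4 and C230037L18Rik. A missed call does not show that the difference was equal on the diets. Triobp, Sun2, L3mbtl2 and Celsr1 also showed no called response to either drug in either genotype. Such loci made up 1.61% of the tested loci around Ppara and 1.99% of all tested loci.

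**Figure D3:**
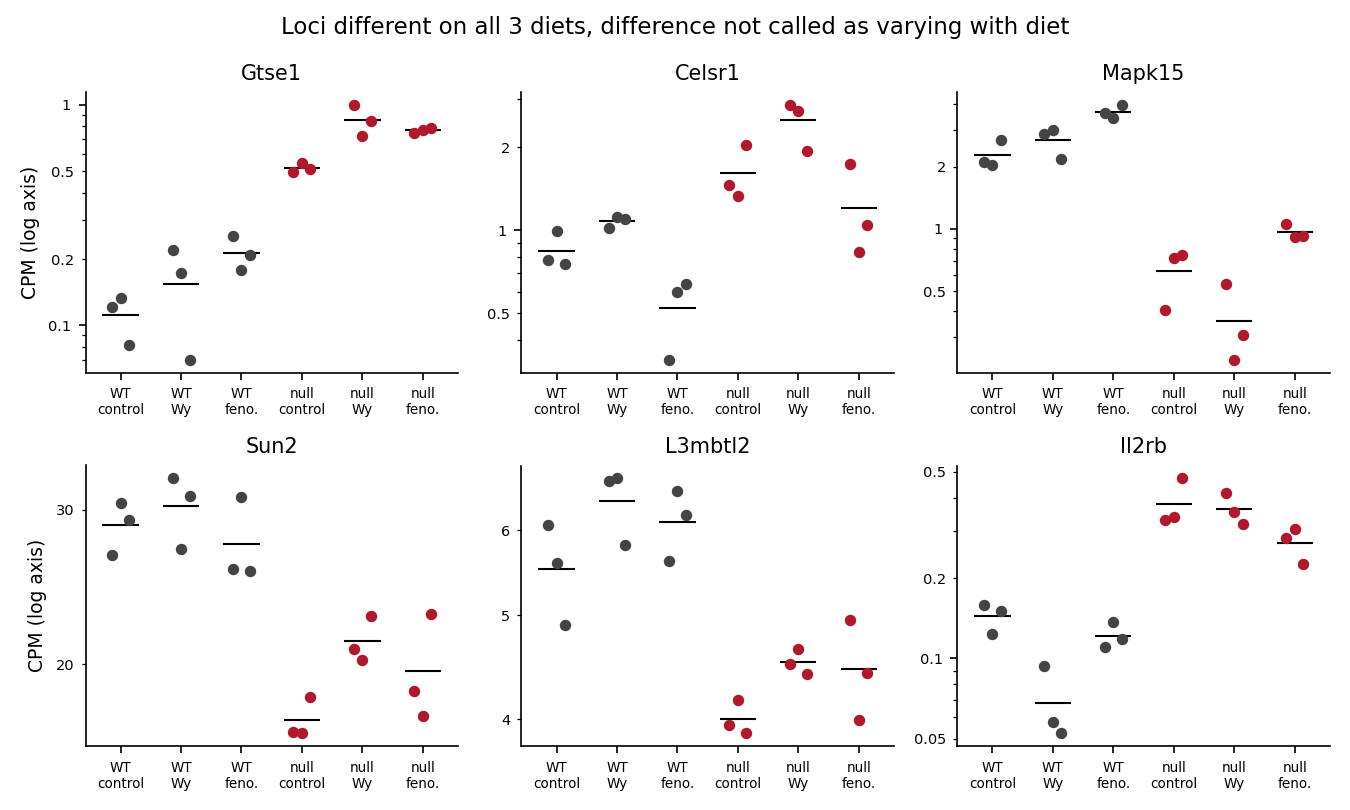
CPM of 6 loci in each of the 18 libraries, on log axes, with grey points for wild type, red points for null and a bar at each group mean. On every diet the 3 null and 3 wild type libraries of each locus stand apart, and Gtse1 null libraries at 0.495 CPM and above exceed every wild type library.

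Mapk15, an atypical MAP kinase, had the largest of these falls, at 9.77 Mb from Ppara (chr15:75993730-75999153, plus strand). Wild type libraries read 2.11, 2.04 and 2.68 CPM on the control diet, 2.88, 2.999 and 2.172 on Wy14,643 and 3.64, 3.43 and 3.98 on fenofibrate. Null libraries read 0.403, 0.719 and 0.752, then 0.541, 0.233 and 0.307, then 1.05, 0.914 and 0.928, below every wild type library. The log2 differences were -1.87 ± 0.24, -2.86 ± 0.25 and -1.94 ± 0.22, and the test for variation with diet gave an adjusted p of 0.061. Under library totals they were further apart, at -1.54, -3.70 and -2.39, and each was still called.

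Sun2 and L3mbtl2 act in the nucleus and, under trimmed-mean scaling, differed by similar amounts on each diet. Sun2, a protein of the inner nuclear membrane that links chromatin to the cytoskeleton, read 26.6, 30.5 and 29.2 CPM in wild type and 16.8, 16.7 and 18.4 in null control livers. On Wy14,643 the values were 32.6, 27.1 and 31.1 and 20.8, 20.2 and 22.7, and on fenofibrate 25.7, 31.1 and 25.6 and 18.7, 17.5 and 22.8. Every null library was below every wild type library, with log2 differences of -0.74 ± 0.11, -0.51 ± 0.11 and -0.48 ± 0.11 (adjusted p = 0.00013, 0.00072 and 0.0014). L3mbtl2, a chromatin protein of a Polycomb-like repressor complex, read 6.06, 5.59 and 4.902 CPM in wild type and 3.95, 4.17 and 3.88 in null control livers. Its differences were -0.47 ± 0.10, -0.50 ± 0.10 and -0.46 ± 0.10, and the test for variation was far from a call (adjusted p = 0.97). Under library totals the differences were less alike, at -0.41, -1.35 and -0.92 for Sun2 and -0.13, -1.33 and -0.92 for L3mbtl2, and neither was called on the control diet. Both lay several Mb from Ppara, Sun2 at 6.04 Mb (chr15:79724068-79742536) and L3mbtl2 at 4.095 Mb (chr15:81663889-81688315).

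Triobp and Zbed4 also had differences that were not called as varying with diet under trimmed-mean scaling. Triobp, an actin-bundling protein, differed by -0.44 ± 0.13, -0.72 ± 0.13 and -0.35 ± 0.13, and its control diet or fenofibrate call was lost without any one of 8 libraries, wild type control 2 and 3, wild type Wy14,643 2, wild type fenofibrate 3, null control 1 and 2 and null fenofibrate 1 and 2. Zbed4, a zinc finger protein at 2.997 Mb on the higher side, differed by -0.57 ± 0.16, -0.78 ± 0.16 and -0.63 ± 0.15. Its call on all 3 diets was lost without any one of wild type control 1 and 3 and null control 2 and 3. Under library totals the differences were less alike, at -0.12, -1.55 and -0.80 for Triobp and -0.25, -1.64 and -1.07 for Zbed4. Neither was then called on the control diet. C230037L18Rik, a noncoding RNA, overlaps Arsa on the opposite strand and cannot be told apart from it where the strand rule of the counting is unknown. It fell by -0.86, -1.59 and -1.50 in signed log2 terms on the 3 diets, and lost its control diet call without any one of wild type control 1 and 2 and null control 2 and 3.

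Il2rb, the shared beta chain of the interleukin 2 and interleukin 15 receptors on lymphocytes, was higher in null livers on each diet (chr15:78479256-78511622, minus strand). Wild type libraries read 0.158, 0.123 and 0.151 CPM on the control diet, 0.09396, 0.0577 and 0.0523 on Wy14,643 and 0.1102, 0.136 and 0.118 on fenofibrate, and null libraries 0.3297, 0.339 and 0.474, then 0.417, 0.355 and 0.318, then 0.282, 0.305 and 0.225. All null libraries were above all wild type libraries, at only 6 to 47 counts each. The log2 differences were 1.39 ± 0.26, 2.39 ± 0.29 and 1.15 ± 0.27. Under library totals the fenofibrate difference was 0.71 and was not called. Of 7 lymphocyte markers 3 could be tested. In the mean of the diets 3 were called higher in null livers (30.2% of all tested loci were). On Wy14,643 1 was higher (27.1% of all), on fenofibrate 1 (24.1%) and on the control diet 0 (4.28%). The summed level of the markers was 0.116 to 0.241 CPM in wild type and 0.256 to 0.339 CPM in null control livers, with Ms4a1 at 0 in all libraries. Their part in the Il2rb difference was not tested. In whole liver, fewer cells of a type and less RNA per cell cannot be told apart.

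**Figure D4:**
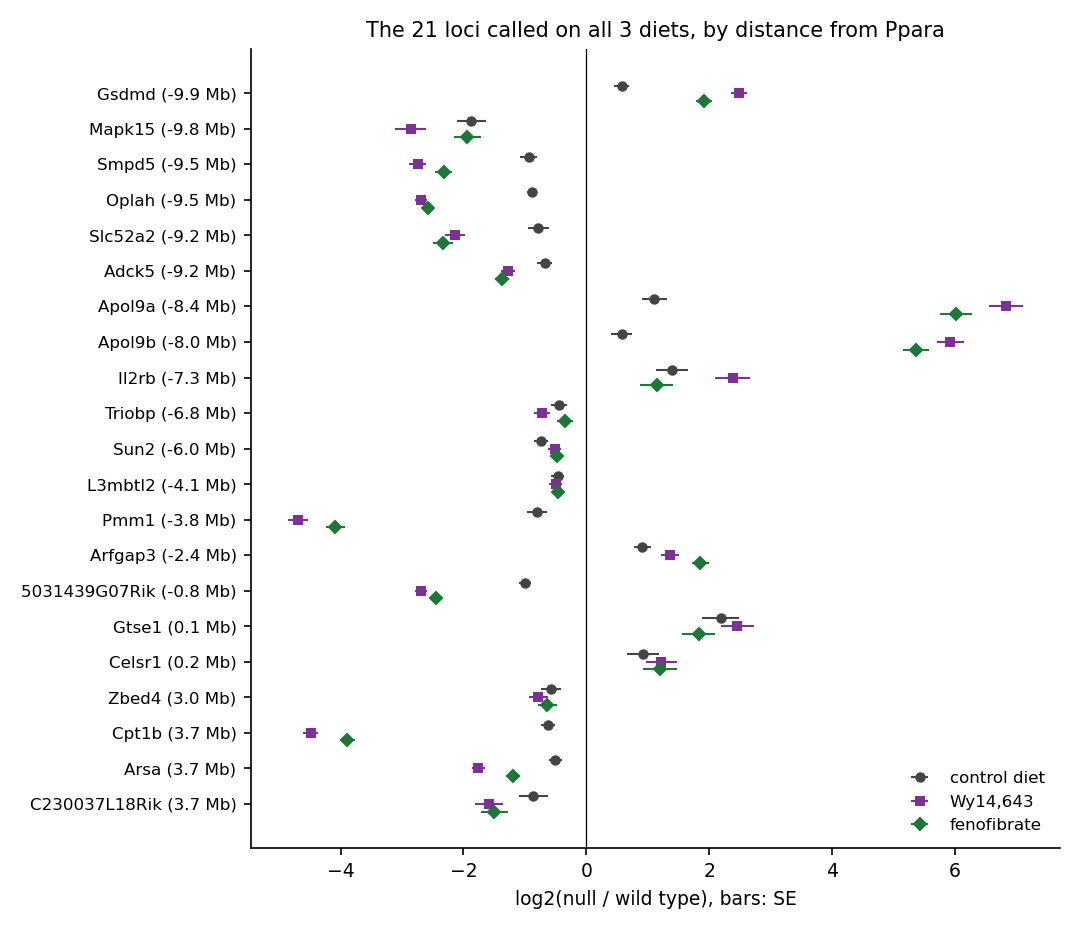
For the 21 loci called on all 3 diets, ordered by distance from Ppara in Mb, points give log2 of null over wild type on the control diet, Wy14,643 and fenofibrate, and bars give the SE. Apol9a reaches 6.83 and Pmm1 -4.70 on Wy14,643, while Sun2, L3mbtl2 and Gtse1 have their 3 points close together under this trimmed-mean scaling.

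The difference itself varied with diet at 70 of the 249 tested loci (28.1%, against 26.4% of all tested loci), and at 12 of the 21 (4.82% of the loci around Ppara against 3.92% of all). These 12 were Gsdmd, Smpd5, Oplah, Slc52a2, Adck5, Apol9a, Apol9b, Pmm1, Arfgap3, 5031439G07Rik, Cpt1b and Arsa. At each of the 12 the log2 difference was larger in size on both drugs than on the control diet, and under library totals at 11 of them, Arfgap3 being the exception (1.25 on the control diet and 0.54 on Wy14,643). In wild type, Wy14,643 changed 101 of the 249 loci (39.2% of all tested loci changed) and fenofibrate 92 (36.9% of all). In null livers Wy14,643 changed 1 (0.239% of all) and fenofibrate 4 (1.54% of all), none of them among the 21. The 1 was Tymp, thymidine phosphorylase (-0.84 ± 0.12), and the 4, named because they are so few, were LOC102638882 and Cyp2d37-ps, which rose (0.997% of all loci did), and Cyp2d26 and 7530414M10Rik, which fell (0.548% of all). The comparisons of a genotype share their control libraries, and each drug group also enters a genotype comparison.

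Cpt1b is the muscle form of the carnitine palmitoyltransferase that admits fatty acids to mitochondria. With Arsa, it was one of the 2 among the 21 that are on the list of lipid genes used below. It lies at 3.65 Mb on the higher side (chr15:89416405-89429696, minus strand) and overlaps Chkb. Wild type libraries read 7.43, 7.16 and 6.98 CPM on the control diet, 113, 106 and 108 on Wy14,643 and 92.2, 96.3 and 96.4 on fenofibrate. Null libraries read 4.37, 4.54 and 5.16, then 4.62, 4.18 and 5.79, then 5.43, 6.55 and 7.21. The wild type drug libraries stood far above all others, and null control libraries lay below wild type control libraries. The log2 difference was -0.62 ± 0.11 on the control diet (adjusted p = 0.0012) and -4.49 ± 0.13 and -3.89 ± 0.12 on the drugs. Under library totals the control diet difference was -0.28 and was not called (adjusted p = 0.18).

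Pmm1, a phosphomannomutase, showed the same order with a larger fold (chr15:81951106-81960930, minus strand). It read 1.19, 0.934 and 0.973 CPM in wild type and 0.6503, 0.596 and 0.535 in null control livers. Wild type levels were 12.7, 13.9 and 11.5 on Wy14,643 and 10.1, 8.68 and 8.36 on fenofibrate, while null levels were 0.506, 0.488 and 0.472 and 0.6497, 0.579 and 0.382. The log2 differences were -0.80 ± 0.16, -4.70 ± 0.16 and -4.09 ± 0.16.

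A neighbouring group at the lower end of the window fell in null livers too. Oplah, the 5-oxoprolinase of the glutathione cycle, read 43.1, 53.6 and 50.1 CPM in wild type and 25.8, 26.2 and 27.6 in null control livers, and 197, 185 and 198 against 30.8, 31.4 and 27.8 on Wy14,643. Its differences were -0.88 ± 0.09, -2.69 ± 0.09 and -2.58 ± 0.09. Smpd5, a sphingomyelinase, overlaps Oplah on the opposite strand and moved alike (-0.94, -2.74 and -2.32), so reads of the pair may have been shared. Slc52a2, a riboflavin transporter, differed by -0.78, -2.14 and -2.33, and Adck5, a kinase-like mitochondrial protein, by -0.68, -1.27 and -1.37. Arsa, the lysosomal arylsulfatase A on the higher side, differed by -0.50, -1.76 and -1.19.

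Apol9a, Apol9b, Gsdmd and Arfgap3 were higher in null livers, and both drugs lowered them in wild type. Apol9a, an interferon-inducible apolipoprotein L, read 14.1, 11.4 and 12.7 CPM in wild type and 26.7, 30.9 and 24.9 in null control livers (chr15:77403789-77411080, minus strand). On Wy14,643 wild type fell to 0.243, 0.375 and 0.192 and null livers read 26.9, 28.8 and 35.9, and on fenofibrate the values were 0.823, 0.472 and 0.4001 and 43.4, 41.1 and 26.7. The log2 differences were 1.11 ± 0.20, 6.83 ± 0.28 and 6.02 ± 0.26, the largest rise among the 21. Apol9b, its near copy, differed by 0.58 ± 0.17, 5.93 ± 0.22 and 5.36 ± 0.21, and reads that match both copies make the 2 values uncertain. Its control diet call was lost without any one of the 3 wild type control libraries or null control libraries 1 and 2.

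Gsdmd, gasdermin D, the pore former of pyroptosis, read 7.84, 8.28 and 7.498 CPM in wild type and 12.5, 11.1 and 11.6 in null control livers, then 1.77, 2.095 and 1.76 against 10.6, 10.04 and 10.8 on Wy14,643 and 2.83, 3.34 and 2.65 against 12.5, 12.1 and 8.56 on fenofibrate. Its differences were 0.58 ± 0.12, 2.48 ± 0.13 and 1.91 ± 0.13. Arfgap3, a regulator of ARF1 at the Golgi, differed by 0.91 ± 0.14, 1.36 ± 0.14 and 1.86 ± 0.14, at 2.45 Mb from Ppara.

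**Figure D5:**
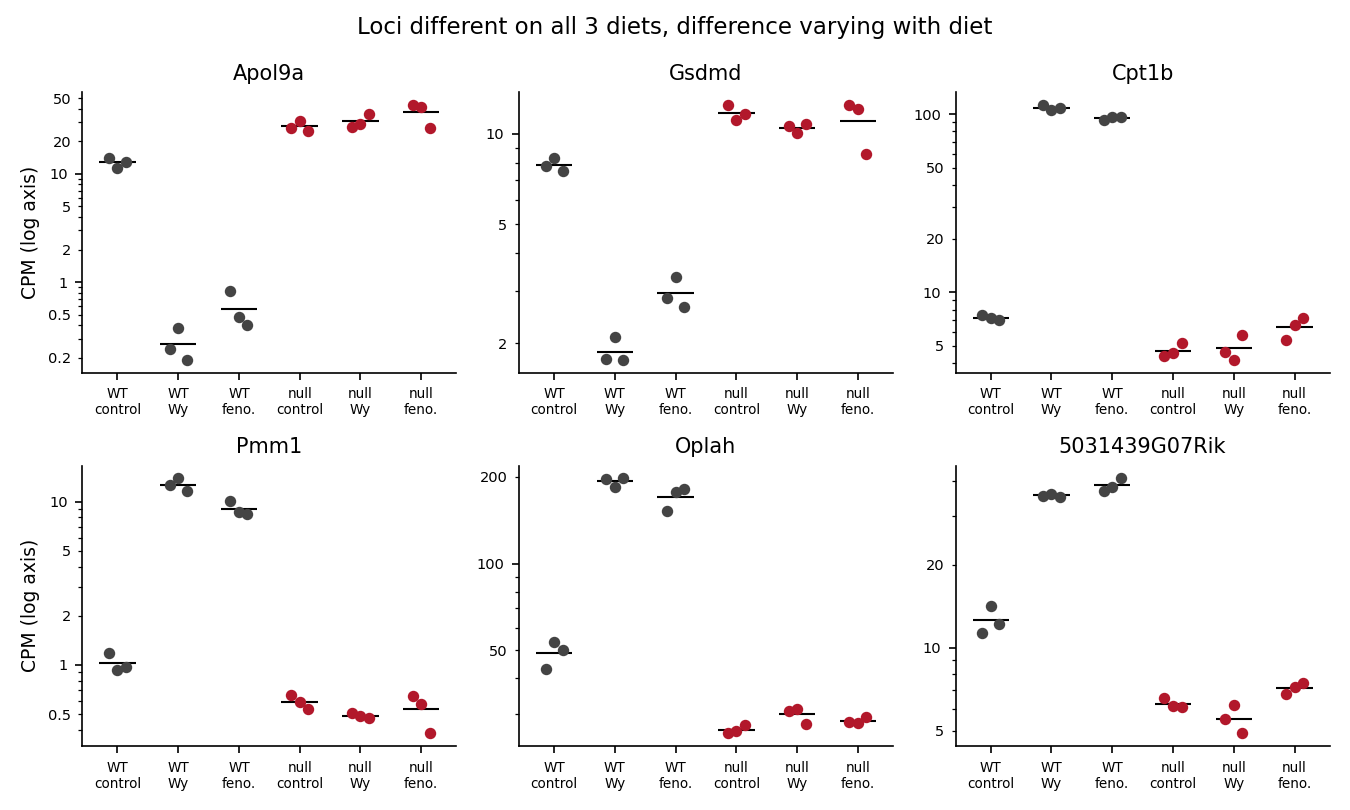
CPM of 6 loci in each of the 18 libraries, on log axes, with grey points for wild type, red points for null and a bar at each group mean. Wild type levels move with the drugs, down at Apol9a and Gsdmd and up at Cpt1b, Pmm1, Oplah and 5031439G07Rik, while null levels move far less. On each diet the null libraries lie apart from the wild type libraries.

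By gene group, the shares of all tested loci called higher and lower in null livers, against which the lists can be read, were 4.28% and 5.66% on the control diet, 27.1% and 25% on Wy14,643 and 24.1% and 22.9% on fenofibrate. Of 12 apolipoproteins L, 6 were tested, 2 were higher on the control diet, 6 on Wy14,643 and 4 on fenofibrate, and none was lower. The list's median log2 difference was 0.65, 1.88 and 1.92, against -0.0044, 0.05 and 0.03 over all tested loci. The low-count Apol7b and Apol7e read 0.96 and 0.83 on fenofibrate with no call. Apol7a, named for its level, was not called on the control diet (0.09 ± 0.12) and differed by 1.87 ± 0.13 on Wy14,643 and 1.64 ± 0.13 on fenofibrate. Under library totals the counts higher were 3, 4 and 4.

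The Cyp2d cytochromes P450, enzymes that oxidise drugs and endogenous amines, did not pass the test on the control diet (0 of 10), where under library totals 4 were higher, Cyp2d10, Cyp2d26 and Cyp2d40 among them. On Wy14,643 7 were higher in null livers and on fenofibrate 8, with 0 lower. Under library totals the drug counts became 1 higher with 1 lower on Wy14,643 and 2 higher on fenofibrate, and Cyp2d10 and Cyp2d9 changed sign on Wy14,643 and Cyp2d26 on both drugs. Cyp2d40 kept its sign. It read 21.2, 20.4 and 21.03 CPM in wild type control livers, 5.56, 5.87 and 5.02 on Wy14,643 and 12.7, 5.24 and 4.89 on fenofibrate, and 20.5 to 28.8 CPM in the 9 null libraries. Its differences were 0.33 ± 0.24 with no call, 2.03 ± 0.25 and 1.72 ± 0.25. The first wild type fenofibrate library, at 12.7 CPM, was above the other 2. Cyp2d22 differed by 0.13 with no call, 1.18 and 1.15. Cyp2d9 differed by -0.12 with no call, 0.49 and 0.51, Cyp2d10 by 0.24 with no call, 0.81 and 0.80, and Cyp2d26 by 0.26 with no call, 0.38 and 0.28. These genes are near copies of each other, so reads may have been split among them. Hepatocyte markers moved on the same diets, with 6 of 6 higher in null livers on each drug and 0 called on the control diet. They summed to 20750 to 24706 CPM in wild type and 42687 to 44310 CPM in null livers on Wy14,643, and their part in the Cyp2d differences was not tested.

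Of 14 lipid genes 12 were tested, and Pnpla3 and Pnpla5, the patatin-like lipases nearest Ppara, had too few counts. On the control diet 2 were lower in null livers, Cpt1b and Arsa, and none was higher. On each drug 9 were lower, and 3 were higher on Wy14,643 and 2 on fenofibrate. Under library totals 0 were lower and 2 higher on the control diet, and on each drug 9 were lower, with 0 and 2 higher. Abcd2, the peroxisomal transporter of very long chain fatty acids, held 0.947, 0.359 and 0.707 CPM in wild type control livers and 14.2, 13.1 and 14.9 on Wy14,643, and at most 0.532 CPM in any null library. Its control diet difference missed the threshold (-0.94 ± 0.33, adjusted p = 0.086), and on the drugs it was -5.36 ± 0.30 and -4.87 ± 0.30. Dgat1, which makes triglyceride, differed by -0.18 with no call, -0.62 and -0.54. Srebf2, the regulator of cholesterol synthesis, differed by -0.40 with no call, -0.45 and -0.53. The joint edgeR test did not call variation with diet at Srebf2 (adjusted p = 0.91). Under library totals its differences were -0.07, -1.25 and -1.02. Chkb, which overlaps Cpt1b, differed by -0.30 with no call, -1.39 and -1.08. Mcat, the mitochondrial malonyl transferase, differed by -0.24 with no call, -0.42 and -0.55. Tspo, an outer mitochondrial membrane protein, differed by 0.11 with no call, -0.60 and -0.49. On the control diet Tspo and Cyb5r3 were called higher under library totals alone (0.45 and 0.53). Cyb5r3, a cytochrome b5 reductase, rose in null livers on both drugs (0.69 and 0.80), with the sign on Wy14,643 reversed under library totals. Cerk, ceramide kinase, was called on Wy14,643 only (0.50, adjusted p = 0.037), also with the sign reversed there.

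Of 11 mitochondrial genes, 1 was lower in null livers on the control diet, 7 on Wy14,643 and 6 on fenofibrate, and 2 and 1 were higher on the drugs, where 25% and 22.9% of all tested loci were lower. Under library totals 3 were higher on the control diet and 10 lower on each drug. Samm50, an outer membrane assembly protein 1.57 Mb from Ppara, differed by 0.11 with no call, -0.65 and -0.68. Mpst, a sulfurtransferase, differed by -0.23 with no call, -0.54 and -0.44. Tst (0.09, -0.20 and 0.04) and Txn2, mitochondrial thioredoxin (0.14, -0.18 and -0.15), passed on no diet under trimmed-mean scaling. Under library totals both were called on every diet, higher in null livers on the control diet and lower on the drugs. Tymp, which is in none of the lists, differed by -0.02 ± 0.12 on the control diet with no call, -2.00 ± 0.12 and -1.57 ± 0.12, and overlaps Sco2, so their reads may have been shared.

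Of 8 housekeeping genes, most of them of ribosomes, translation or RNA polymerases, 0 were called on the control diet and 5 were lower on each drug. Under library totals 3 were higher on the control diet, Rpl3 and Rpl8 among them, and 8 and 7 were lower on the drugs, including Rpl8. Rpl3 differed by 0.25 with no call, -0.42 and -0.33, and Rpl8 by 0.09, -0.20 and -0.02 with no call. Of 10 stress genes and regulators, 1 was lower on the control diet (Zbed4). On the drugs 5 and 4 were higher, with 1 lower on each. Under library totals 3 were higher on the control diet. On the drugs 0 and 1 were then higher, and 5 and 2 were lower. Atf4, the transcription factor of the integrated stress response, differed by 0.19 ± 0.10 with no call, 0.73 ± 0.10 (negative under library totals) and 0.45 ± 0.10. Creld2, a chaperone-like protein of the endoplasmic reticulum, read 16.6, 16.3 and 13.98 CPM in wild type and 36.1, 29.4 and 22.2 in null control livers. Its differences were 0.90 ± 0.30 with no call (edgeR adjusted p = 0.067), 1.02 ± 0.30 (adjusted p = 0.0083) and 0.33 ± 0.30 with no call. Under library totals they were 1.22, 0.21 and -0.14, and only that on the control diet was called. Null fenofibrate libraries ranged from 6.24 to 21.9 CPM. Gpt, alanine aminotransferase, which is in none of these lists, differed by 0.01 with no call, 0.60 (negative under library totals) and 0.47.

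Of 13 immune genes 11 were tested. On the control diet Il2rb alone was called. On Wy14,643 4 were higher and 1 lower in null livers, and on fenofibrate 5 and 1, beside 27.1% and 24.1% of all tested loci that were higher. Under library totals 4 were higher on the control diet, and 4 and 2 on the drugs with 3 lower on each. The 1 that was lower was Csf2rb, the common beta receptor of interleukin 3, interleukin 5 and GM-CSF, named for this exception. It read 1.42, 1.31 and 1.22 CPM in wild type control livers, 13.1, 14.98 and 12.4 on Wy14,643 and 12.7, 12.97 and 16.6 on fenofibrate, and 0.875 to 1.68 CPM in all null libraries. Its differences were -0.40 ± 0.15 with no call (adjusted p = 0.1), -3.54 ± 0.14 and -3.33 ± 0.14. Apobec3, a cytidine deaminase that restricts retroviruses, differed by 0.92 ± 0.33 with no call (adjusted p = 0.1), 2.63 ± 0.36 and 2.48 ± 0.35. Kupffer cell markers moved on the same diets, with 10 of 10 higher in null livers on each drug and 0 on the control diet. Their summed level was 47.4 to 51.0 CPM in wild type and 117 to 144 CPM in null livers on Wy14,643, and their part in the immune genes was not tested.

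Over the 249 loci, the control diet difference correlated with that on Wy14,643 at a Pearson r of 0.565 and with that on fenofibrate at 0.561, and the drug differences correlated with each other at 0.950. Over all tested loci these were 0.601, 0.609 and 0.908. They are across loci of the same libraries, which are not independent. At the edges of the window, Zc3h3 at 9.97 Mb just inside read 0.22 ± 0.11 and Top1mt at 10.1 Mb just outside read -0.35 ± 0.06 in the mean of the diets. On the higher side Twf1 at 8.81 Mb read -0.16 ± 0.08, and A130051J06Rik at 10.02 Mb read -0.81 ± 0.41.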

How the data were processed

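Stranded polyadenylated RNA libraries (TruSeq Stranded mRNA) were made from pooled mouse liver. The mm10 build, TopHat2 2.0.8, Trimmomatic 0.30, Picard 1.84 and bcl2fastq 2.17 are named in the submitters' processing notes. The deposited values are raw read counts per locus, per the file headers. The sources used here do not give the counting tool or its strand rule. Of 52463 loci, 31099 with a gene identifier were used, and neither 12 blank or total rows nor 5 read columns without a matching sample entered.

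Testing used edgeR 4.0.16 (R 4.3.3). Loci were kept by filterByExpr, scaled by trimmed means (TMM) and fitted with 1 coefficient for each of the 6 groups over 18 libraries (12 residual degrees of freedom). The quasi-likelihood F-test was adjusted by Benjamini-Hochberg over 14241 loci at 0.05. The SE is the log2 difference divided by the square root of F, and CPM use the scaled library size. Replicates are separate pools, so p-values measure the spread between pools. A permutation of 3 against 3 libraries cannot go below p = 0.1, so single-locus calls rest on the fitted spread.

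The test for variation with diet took both genotype by diet terms jointly. In simulated data of 13994 loci, the rule of all 3 diets recovered 37.3% of 1.5-fold, 88.1% of 2-fold and 100% of 4-fold changes, with 0 false calls. Changes were placed only in loci above a floor of mean CPM, and no diet effect was simulated. These rates therefore do not cover low-count loci such as Gtse1, Il2rb and Cdpf1. Libraries of the same number were not paired, since deviations of same-numbered libraries correlated from -0.404 to 0.398.

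The text names all loci called on all 3 diets, the 5 nearest tested loci on each side of Ppara and 30 fixed loci (another on that list is not reported here), plus a few chosen after their values were seen. Members and lists were chosen with earlier results of these data known. Promoter sequences came from RefSeq, and 356 loci around Ppara were in its GRCm38.p6 table, all at overlapping positions. Alternatives were DESeq2 1.42.0, library totals, no Mup loci, no filter, a replicate block, only the 6 libraries of a comparison, each library left out, a 5 Mb window and no overlapping loci.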

Additional observations from a re-analysis of the deposited data

Results flagged for a closer look

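The null against wild type difference changed with diet at 28 of 53 loci, by edgeR's joint test of the genotype by diet terms over all tested loci. The 53 are the loci called on all 3 diets, the nearest on each side and the fixed loci, so many were chosen for their differences. Over all tested loci the share was 26.4%. Among loci called on all 3 diets there were 12, with adjusted p = 6.4e-07 for Gsdmd, 4e-06 for Smpd5, 4.7e-09 for Oplah, 0.00016 for Slc52a2, 0.0068 for Adck5, 5.3e-10 for Apol9a, 6.1e-11 for Apol9b, 1.1e-09 for Pmm1, 0.0049 for Arfgap3, 3.9e-08 for 5031439G07Rik, 1.3e-11 for Cpt1b and 2.3e-05 for Arsa. At Oplah, Cpt1b, Pmm1 and 5031439G07Rik null livers were lower and at Apol9a, Apol9b and Gsdmd higher, and the difference was larger in size on both drugs than on the control diet.

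The other 16 were not called on the control diet. Those with the smallest adjusted p were 1e-07 for Tymp, 1.3e-07 for Atxn10, 1.5e-06 for Abcd2, 1.9e-05 for Samm50 and 0.00035 for Cyp2d22. The next were 0.00042 for Gpt, 0.0014 for Cyb5r3, 0.0019 for Cyp2d40, 0.0021 for Rpl3, 0.0078 for Tspo and 0.013 for Cyp2d9. The last were 0.018 for Chkb, 0.021 for Apobec3, 0.029 for Dgat1, 0.03 for Atf4 and 0.037 for Cyp2d10. At each of the 28 the size of the difference on both drugs was above that on the control diet, which at many loci was near 0. Under library totals this held at 21 of them, and not at Gpt, Atf4, Cyp2d22, Cyp2d10, Cyp2d9, Cyb5r3 and Arfgap3. Diet responses were called in wild type for both drugs at 26 of the 28, and in null livers for either drug at 1, Tymp. Over all tested loci fenofibrate changed 36.9% in wild type and 1.54% in null livers, and the other drug 39.2% and 0.239%. The 28 were chosen by a test on the same libraries that calls loci whose diet response differs between genotypes. Null livers held few responses anywhere, so that choice favours loci that respond in wild type, and the 26 are not a separate result. All these comparisons share libraries, and what the pattern stems from was not tested.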

How the results depend on the processing

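In the order control diet, Wy14,643, fenofibrate, all 3 diets, mean and variation with diet, the counts of 27, 136, 126, 21, 152 and 70 loci were recomputed under each alternative. A window of 5 Mb gave 15, 67, 56, 10, 75 and 33, and leaving out loci that overlap another gave 15, 84, 75, 12, 92 and 36, in both cases because fewer loci were tested (112 and 159). Library totals gave 50 loci on the control diet and 173 that varied with diet, and 14 on all 3 diets, 9 of them among the 21. They turned the mean difference of Cyp2d9 to -0.022 and of Cyp2d26 to -0.0097, and the cause was not tested. Leaving out 1 library at a time gave 18 to 34, 119 to 147, 110 to 128, 17 to 24, 146 to 160 and 57 to 85. On all 3 diets, DESeq2 gave 23 loci and the 6 libraries of each comparison alone gave 24, of which 21 and 20 were among the 21. A replicate block gave 21, the same loci, and pairing by number, which the data did not bear out, changed no mean difference of a named locus across the threshold. The fits without Mup loci and without a filter also gave the same 21.

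Of the 21, 16 kept their calls whichever library was left out, and Apol9b, C230037L18Rik, Celsr1, Triobp and Zbed4 did not. Depth limits Gtse1, Il2rb and Cdpf1, which held 7 to 113, 6 to 47 and 6 to 36 counts per library. Changes of 1.5-fold were often missed on simulated data. Overlapping and near-identical loci may share reads.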
